A study of Homo sapiens with 18 samples.

Results

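Among the 19775 genes named alone by a probe set of the array, 10 signalling genes of the inflamed epithelium were followed: the chemokines CXCL8, CXCL1, CXCL2, CXCL3, CXCL5, CCL2 and CCL20 and the interleukins IL6, IL1A and IL1B. Every probe set whose platform symbol was exactly one of these names was taken, with IL8 read as CXCL8, which gave 17 of 54675 probe sets. The cells were A549, a human lung carcinoma line used as a model of alveolar type II cells, kept at the air-liquid interface for 72 h. In each of 9 experiments a culture from the exposure chamber was set beside a parallel culture from the reference chamber, which never received formaldehyde, and 1 array was hybridised per culture. The exposure chamber carried 0, 0.1 or 0.5 ppm formaldehyde in 3 experiments each, so that 6 groups of 3 arrays resulted: the exposure chamber of the 0, 0.1 and 0.5 ppm experiments and the reference chamber of the same experiments. All cultures were of the same untreated cell line otherwise. The labels set the groups apart by chamber, concentration and experiment number, and each concentration was run in experiments of its own. These were numbered 7, 8 and 9 for 0 ppm, 2, 4 and 6 for 0.1 ppm and 1, 3 and 5 for 0.5 ppm. The paper reports a randomized order of experiments. In comparisons with 0 ppm, concentration and experiment number cannot be told apart. The raw file of 1 array, that of replicate 2 in the 0 ppm exposure chamber, bears another date than the other 17, and without this array the count of member probe sets past an unadjusted p of 0.05 was 1 for the chamber difference at 0.5 against 0 ppm and remained 0 in the other 4 comparisons that use it.

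Chemokines are small secreted proteins that guide leukocytes towards their source. CXCL8, CXCL1, CXCL2, CXCL3 and CXCL5 attract neutrophils through the receptor CXCR2, CXCL8 through CXCR1 as well, CCL2 attracts monocytes through CCR2, and CCL20 attracts dendritic cells and lymphocytes through CCR6. IL1A and IL1B start the response through the IL-1 receptor, the adaptor MYD88 and the transcription factor NF-kB, and IL6, one of the genes that NF-kB turns on, signals through IL6R and IL6ST. Airway epithelium is a main source of these mediators when irritants reach the lung.

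Of the 10 genes, 5 lie together on chromosome 4 in the order CXCL8, CXCL1, CXCL5, CXCL3 and CXCL2, while IL1A, IL1B and CCL20 lie on chromosome 2, IL6 on chromosome 7 and CCL2 on chromosome 17. RefSeq promoters (GRCh38.p14, 250 bases before to 50 bases after the start) were matched for 9 of the 10 genes. The motif GGANTTTCC, a form of the NF-kB binding site, was sought on both strands. It occurred in the promoters of 6 genes, CXCL8, CXCL1, CXCL2, CXCL3, CXCL5 and IL6, and not in those of CCL20, IL1A and IL1B. Of all 35116 promoters in the table, 577 (1.64%) contained it. The 120 bases before the start of these 6 genes are shown. Of them, CXCL1, CXCL2, CXCL3 and CXCL5 ran together on the arrays. So did CCL2, for which no promoter was matched, and CCL20, which lacked the motif. A link between the motif and shared movement was not tested. Capitals mark the motif, and all sequences read 5′ to 3′ on the strand of the gene.
CXCL8: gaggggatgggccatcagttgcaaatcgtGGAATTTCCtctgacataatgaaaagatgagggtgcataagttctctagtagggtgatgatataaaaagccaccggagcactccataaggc
CXCL1: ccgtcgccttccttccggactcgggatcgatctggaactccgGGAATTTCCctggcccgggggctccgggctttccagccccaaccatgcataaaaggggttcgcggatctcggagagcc
CXCL2: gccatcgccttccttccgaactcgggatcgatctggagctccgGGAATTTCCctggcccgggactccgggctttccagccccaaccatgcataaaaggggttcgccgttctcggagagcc
CXCL3: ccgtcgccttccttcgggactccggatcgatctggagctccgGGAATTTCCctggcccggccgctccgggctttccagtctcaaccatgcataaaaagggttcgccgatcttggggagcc
CXCL5: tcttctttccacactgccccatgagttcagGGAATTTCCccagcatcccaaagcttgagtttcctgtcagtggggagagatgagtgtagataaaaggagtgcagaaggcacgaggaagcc
IL6: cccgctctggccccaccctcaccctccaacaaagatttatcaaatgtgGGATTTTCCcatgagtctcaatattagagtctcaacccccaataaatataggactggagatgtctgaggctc

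The windows lie at chr4:73740449-73740568 (CXCL8, plus strand), chr4:73869273-73869392 (CXCL1, plus strand), chr4:74099196-74099315 (CXCL2, minus strand), chr4:74038690-74038809 (CXCL3, minus strand), chr4:73998678-73998797 (CXCL5, minus strand) and chr7:22727080-22727199 (IL6, plus strand). In a global alignment the windows of CXCL1 and CXCL2 were identical in 93.4% of aligned columns, those of CXCL1 and CXCL3 in 90.8% and those of CXCL2 and CXCL3 in 88.4%. CXCL5 shared 51.9% with CXCL1 and CXCL8 shared 43.6% with CXCL1, beside 49.6% between IL6 and CXCL1. CXCL1, CXCL2 and CXCL3 are thus near-identical copies in this window. Such paralogs can also share array probes, and the extent to which their signals are separate was not tested.

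All values are log2 MAS5 signals, in which 1 unit is a doubling, and every array had been scaled to the same trimmed mean. The median signal of an array, on the linear scale, was between 26.7 and 34.0. The number of arrays limits the precision, and intervals below cover the spread between the 3 arrays of a group. The 5′ probe set of actin, an indicator of intact RNA, had a log2 signal of 5.90 on the 0.1 ppm reference-chamber array of replicate 1 and 6.85 on the 0 ppm reference-chamber array of replicate 3, and between 7.75 and 9.70 on all other arrays (16). The difference between the 3′ and 5′ probe sets of GAPDH, a second such indicator, did not set these arrays apart in the same way: it was 0.15 and 0.16 log2 units on them, at the low end of the range of 0.15 to 0.64 over all arrays. For the brightest probe set of each gene, differences between chambers are given with and without the 2 arrays of low actin signal. All 6 epithelial markers lay at or above the median probe set, among them CDH1, KRT8 and KRT18. Of 6 measured leukocyte markers, LYZ, ITGAM and CD14 did, while PTPRC, CD3E and MS4A1, which define leukocytes and their lymphocyte classes, lay below it. So did 4 of 5 fibroblast and 3 of 4 endothelial markers. In the exposure chamber the epithelial marker KRT19 was higher at 0.1 than at 0 ppm (1.17 ± 0.41, adjusted p = 1) and at 0.5 than at 0 ppm (1.05 ± 0.36, adjusted p = 0.9999), and in the reference chamber it was higher in the 0.1 than in the 0 ppm experiments (1.62 ± 0.50, adjusted p = 1). PTPRC, MS4A1, COL3A1, LUM and PDGFRB, all below the median probe set, also passed an unadjusted p of 0.05 in at least 1 comparison, and the other 15 measured markers did not.

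The 10 genes covered a wide range of signal. With the brightest probe set of each gene, 8 of 10 were at or above the median probe set of the array and IL6 and IL1A below it. Over the 18 arrays, the mean of CXCL8 stood at the 89.4th percentile of all probe sets, CXCL2 at the 87.1st, CXCL1 at the 84.9th, CXCL3 at the 77.8th, CCL2 at the 76.3rd, CCL20 at the 67.5th and IL1B at the 55.4th. CXCL5 was at the 90.7th percentile. IL1A (37.0th) and IL6 (36.3rd) were the dim ones. These ranks order probe sets by signal and are not amounts of RNA, because probe sets differ in how strongly they bind.

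Neither the chemokines nor the interleukins passed the threshold used in the study, an unadjusted p under 0.05 in limma. In the exposure chamber with 0 ppm against its reference chamber, 0 of 17 member probe sets passed, where 4.84% of all probe sets did. With 0.1 ppm the count was again 0 of 17, where 4% of all probe sets passed, and with 0.5 ppm it was 0 of 17, where 3.92% did. Within the exposure chamber 0 of 17 passed for 0.1 against 0 ppm (4.47% of all) and 0 of 17 for 0.5 against 0 ppm (4.56%). Between reference chambers, where no culture met formaldehyde, 0 of 17 passed for the 0.1 against the 0 ppm experiments (3.68%) and 0 of 17 for the 0.5 against the 0 ppm experiments (4.54%). The chamber difference itself was compared between experiments, with 0 of 17 past the threshold at 0.1 against 0 ppm (3.21%) and 0 of 17 at 0.5 against 0 ppm (3.69%). At shares of this size fewer than 1 of 17 probe sets would be met per comparison, so that the count of 0 does not set the members apart from other probe sets. As in any culture measured whole, fewer cells that make a transcript and less of it per cell cannot be told apart. After Benjamini-Hochberg adjustment 0% of all probe sets passed in each of the 9 comparisons, and a member had an adjusted p of 0.880 at the lowest.

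Over the 10 brightest probe sets the median log2 difference was 0.55 with 0 ppm in the exposure chamber against its reference chamber, 0.42 with 0.1 ppm and -0.10 with 0.5 ppm, where the medians over all probe sets were -0.071, -0.073 and -0.042. A single member had a median standard error of 0.49, 0.69 and 0.42 in the same order of concentration, which is not the error of these medians. Of the 10 genes, 7 were higher in the exposure chamber at 0 ppm, 8 at 0.1 ppm and 4 at 0.5 ppm. Without the array of low actin signal in each comparison the median was 0.078 at 0 ppm and -0.19 at 0.1 ppm, so that the higher medians rested on those arrays. Within the exposure chamber the median was 0.047 for 0.1 against 0 ppm and -0.13 for 0.5 against 0 ppm. Between the reference chambers it was 0.092 for the 0.1 against the 0 ppm experiments and 0.47 for the 0.5 against the 0 ppm experiments, and -0.0090 for the last of these without the 0 ppm array of low actin signal.

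**Figure D1:**
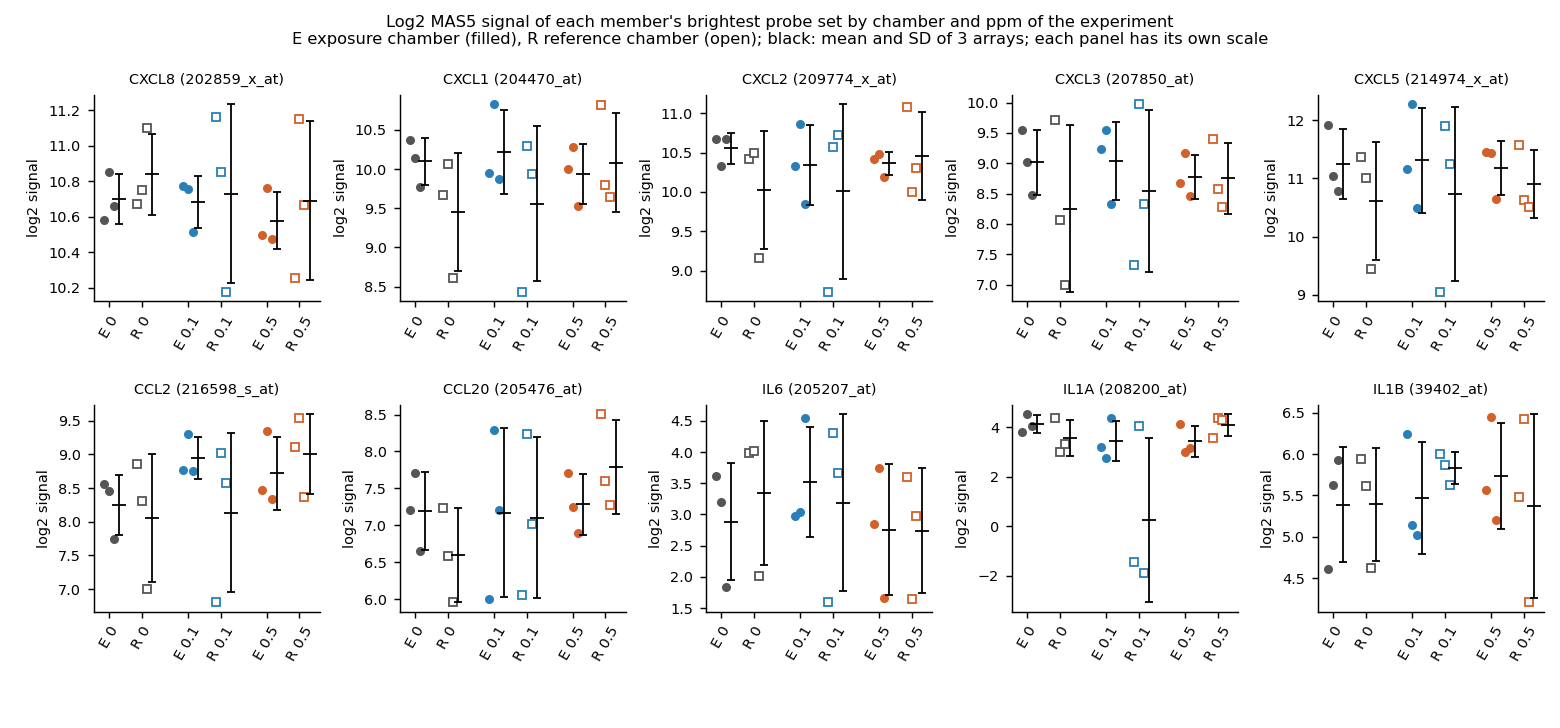
Log2 signal (vertical axis, a scale of its own in each panel) of the brightest probe set of each gene in the 6 groups (horizontal axis, E exposure chamber, R reference chamber, with the ppm of the experiment), with points for arrays and black bars for the mean and SD of 3 arrays. Groups overlap in most panels, and in IL1A the 0.1 ppm reference arrays of replicates 1 and 3 stand at -1.44 and -1.90, below all others.

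CXCL1, CXCL2, CXCL3 and CXCL5 are ligands of CXCR2 and were bright in every group. CXCL5 had log2 signals of 11.92, 11.04 and 10.78 in the 0 ppm exposure chamber, against 11.36, 11.01 and 9.45 in its reference chamber. With 0.1 ppm it had 11.16, 12.28 and 10.50 in the exposure chamber, against 9.05, 11.90 and 11.25 in the reference chamber. With 0.5 ppm it had 11.45, 11.44 and 10.65 in the exposure chamber, against 11.57, 10.62 and 10.51 in the reference chamber. The groups overlapped in each pair, and the lowest 2 values belonged to the 2 arrays of low actin signal. The log2 difference was 0.64 ± 0.61 at 0 ppm, 0.58 ± 0.86 at 0.1 ppm and 0.28 ± 0.41 at 0.5 ppm (limma standard error, n = 3 each), and 0.068 ± 0.56 and -0.063 ± 0.41 when the 0.1 and 0.5 ppm exposure chambers were set against the 0 ppm one. Between chambers it was 0.058 at 0 ppm and -0.26 at 0.1 ppm once the array of low actin signal was left out.

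CXCL1 had differences between chambers near those of CXCL5 at 0 and 0.1 ppm. At 0.5 ppm its difference had the opposite sign, with that of each gene within its error. The log2 signals of CXCL1 were 10.37, 10.15 and 9.77 in the 0 ppm exposure chamber, against 9.67, 10.07 and 8.61 in its reference chamber. At 0.1 ppm they were 9.95, 10.83 and 9.87, against 8.43, 10.30 and 9.94 in the reference chamber, and at 0.5 ppm 9.997, 10.28 and 9.53, against 10.81, 9.79 and 9.65. The exposure chamber held the higher mean at 0 and 0.1 ppm and the lower one at 0.5 ppm, all within the spread of the arrays. The log2 differences were 0.65 (95% interval -0.46 to 1.76), 0.66 (-0.79 to 2.11) and -0.15 (-1.17 to 0.88). Without the low actin arrays the values at 0 and 0.1 ppm were 0.23 and 0.099.

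CXCL2 had log2 signals of 10.67, 10.33 and 10.67 in the 0 ppm exposure chamber, against 10.42, 10.49 and 9.16 in its reference chamber. At 0.1 ppm it had 10.33, 10.86 and 9.85, against 8.73, 10.57 and 10.72 in the reference chamber, and at 0.5 ppm 10.41, 10.48 and 10.19, against 11.08, 9.99 and 10.30. The exposure arrays lay within the range of the reference arrays at 0.5 ppm, and the reference range was widened downwards by the low actin arrays at the other concentrations. The log2 difference was 0.53 ± 0.44 at 0 ppm, 0.34 ± 0.64 at 0.1 ppm and -0.096 ± 0.35 at 0.5 ppm, and 0.097 and -0.30 at 0 and 0.1 ppm without those arrays. The remaining probe sets of CXCL2, 230101_at and 1569203_at, were dim, with log2 signals of 0.23 to 4.44 and -1.12 to 2.82, and did not follow the bright one (r = 0.067 and 0.22 over 18 arrays).

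CXCL3 spread more than CXCL1 and CXCL2. It had log2 signals of 9.54, 9.02 and 8.48 in the 0 ppm exposure chamber, against 9.72, 8.06 and 6.99 in its reference chamber. With 0.1 ppm the exposure chamber gave 9.24, 9.56 and 8.33 and the reference chamber 7.32, 9.98 and 8.34. With 0.5 ppm the exposure chamber gave 8.67, 9.17 and 8.47 and the reference chamber 9.40, 8.58 and 8.27. Every exposure group lay inside or across the range of its reference group. The log2 difference at 0 ppm was 0.76 ± 0.74, at 0.1 ppm 0.50 ± 0.75 and at 0.5 ppm 0.020 ± 0.39. Without the 0 ppm reference array of replicate 1 the 0 ppm difference was 1.49 with an unadjusted p of 0.0364 (adjusted 0.538), and without that of replicate 3, the one of low actin signal, it was 0.13. At 0.1 ppm it was -0.12 without the array of low actin signal.

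CXCL8, the most studied neutrophil chemokine of the airway, was bright and the steadiest member when each gene was read by its brightest probe set. The SD of its second probe set was 0.64. Its brightest probe set, 202859_x_at, ranged from 10.17 to 11.16 over all 18 arrays, an SD of 0.27. It had 10.58, 10.85 and 10.66 in the 0 ppm exposure chamber, against 10.67, 10.75 and 11.10 in its reference chamber. With 0.1 ppm it had 10.78, 10.76 and 10.51, against 11.16, 10.85 and 10.18 in the reference chamber, and with 0.5 ppm 10.50, 10.76 and 10.47, against 10.25, 11.15 and 10.67. All 3 differences between chambers were below 0 and within their errors: -0.14 (95% interval -0.80 to 0.52) at 0 ppm, -0.049 (-1.01 to 0.91) at 0.1 ppm and -0.11 (-0.88 to 0.65) at 0.5 ppm. Against 0 ppm in the exposure chamber it differed by -0.018 (-0.56 to 0.53) at 0.1 ppm and -0.12 (-0.66 to 0.42) at 0.5 ppm, so that a doubling lay outside both intervals of this probe set. Without the low actin arrays the difference between chambers was -0.011 at 0 ppm and 0.17 at 0.1 ppm, so that the sign at 0.1 ppm rested on 1 array.

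The second CXCL8 probe set, 211506_s_at, did not run with the first. It was dimmer, at 3.89 to 6.60, and its r with 202859_x_at was -0.45 over 18 arrays and -0.21 over the 16 without low actin signal. With 0.1 ppm it had 6.01, 6.60 and 6.42 in the exposure chamber, against 5.57, 5.95 and 5.95 in the reference chamber. These groups did not overlap, and the log2 difference of 0.52 ± 0.36 did not pass the threshold in limma (unadjusted p = 0.197). Between chambers this probe set was also higher at 0 ppm, without formaldehyde, by 0.79 ± 0.67. At 0.5 ppm it differed by -0.030 ± 0.40. The chamber difference at 0.1 against 0 ppm was -0.27 ± 0.76. Against 0 ppm in the exposure chamber it differed by 0.43 at 0.1 ppm, with a 95% interval of -0.67 to 1.52 that includes a doubling. With the probe sets of one gene in disagreement, the direction of CXCL8 at 0.1 ppm cannot be read from these arrays.

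**Figure D2:**
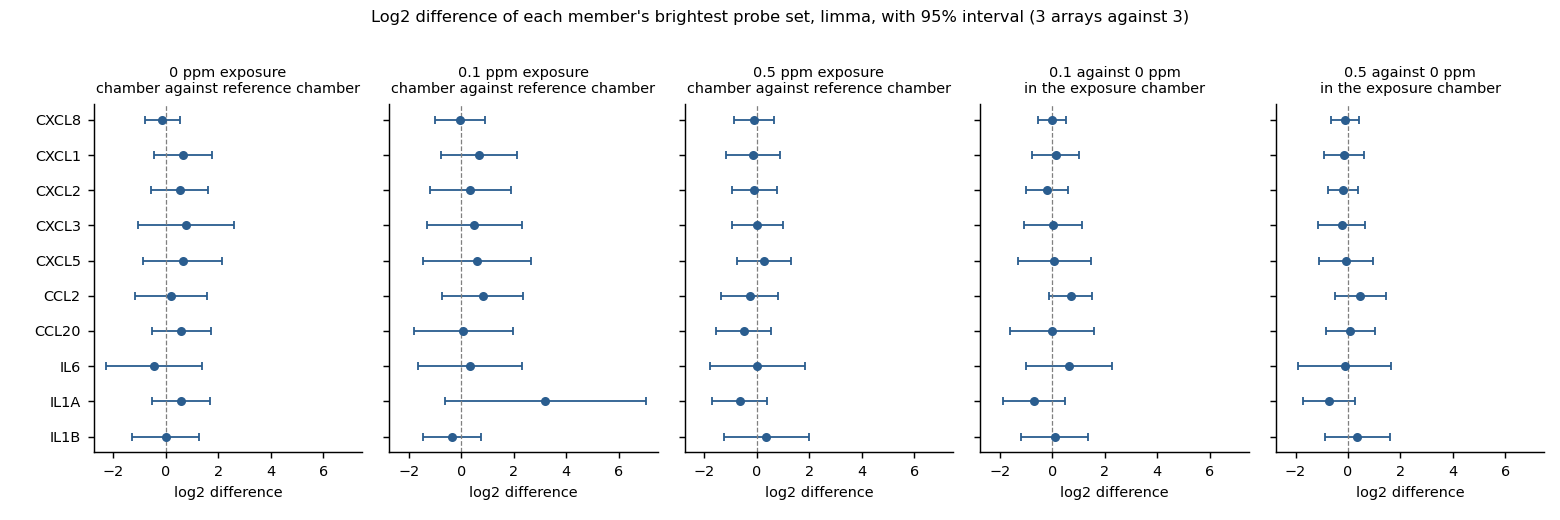
Log2 difference (horizontal axis) with its 95% interval for the brightest probe set of each gene (vertical axis) in 5 comparisons of 3 arrays against 3, from limma. Every interval includes 0, and that of IL1A at 0.1 ppm is the widest, at -0.62 to 7.02.

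CCL2, the monocyte attractant, came nearest to a difference with formaldehyde inside the exposure chamber. Its log2 signals were 8.77, 9.31 and 8.75 in the 0.1 ppm exposure chamber, against 8.56, 8.46 and 7.74 in the 0 ppm exposure chamber. These groups did not overlap. The log2 difference was 0.69 (95% interval -0.13 to 1.51, unadjusted p = 0.0837), and it passed the threshold with a pseudocount of 32 (0.64), with only probe sets above the median and with an intensity trend, at an adjusted p of 0.9997 or more in limma. In the same arrays the summed signal of the leukocyte markers was 2239 to 4450 at 0.1 ppm, against 4393 to 6813 at 0 ppm, with LYZ the brightest of them and PTPRC, CD3E and MS4A1 below the median probe set. All cultures were of the A549 line alone, so that this sum is not a count of leukocytes. Its relation to the CCL2 value was not tested. At 0.5 ppm CCL2 had 8.47, 9.34 and 8.34 in the exposure chamber, which overlapped the 0 ppm values (difference 0.47, 95% interval -0.51 to 1.44).

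Against the reference chamber the groups of CCL2 overlapped at each concentration, while the differences within experiments had 1 sign at 0.1 ppm (above 0 in 3 of 3) and the other at 0.5 ppm (below 0 in 3 of 3). How many of all probe sets share these signs was not counted. With 0.1 ppm the reference chamber had 6.81, 9.03 and 8.58, with the low value on the array of low actin signal, and the difference was 0.81 ± 0.64, or 0.14 without that array. With 0.5 ppm the reference chamber had 9.11, 9.53 and 8.36 and the difference was -0.28 ± 0.44. With 0 ppm it had 8.85, 8.31 and 7.01 and the difference was 0.19 ± 0.55, or -0.33 without the array of low actin signal. The chamber difference of CCL2 differed by 0.62 ± 0.88 between 0.1 and 0 ppm and by -0.47 ± 0.73 between 0.5 and 0 ppm. Without the arrays of low actin signal these values were 0.48 and 0.051, so that the sign of the second changed.

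CCL20, which draws cells bearing CCR6, differed widely between experiments of the same concentration. It had log2 signals of 7.21, 7.72 and 6.65 in the 0 ppm exposure chamber, against 7.24, 6.58 and 5.97 in its reference chamber. With 0.1 ppm it had 6.01, 8.29 and 7.21, against 6.06, 8.23 and 7.02 in the reference chamber, and with 0.5 ppm 7.70, 7.25 and 6.89, against 8.51, 7.60 and 7.28. At 0.1 ppm the cultures of each experiment thus lay side by side while the experiments were far apart. At 0.5 ppm all 3 exposure cultures were lower than their own reference cultures. The log2 differences were 0.60 ± 0.46, 0.066 ± 0.79 and -0.51 ± 0.42 at 0, 0.1 and 0.5 ppm, and 0.28 and -0.45 at 0 and 0.1 ppm without the low actin arrays.

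The chamber difference of CCL20 was lower in the 0.5 than in the 0 ppm experiments (-1.11, 95% interval -2.53 to 0.31, unadjusted p = 0.113). With the experiment as a fixed block in limma, which pairs its chambers, the same value of -1.11 had an unadjusted p of 0.0360. The adjusted p was 0.982. Without the 0 ppm reference array of replicate 1 it was -1.43 and past the threshold (adjusted p = 0.792), and without the array of low actin signal it was -0.79 and not past it. In the fitted values, CCL20 differed more between the 0.5 and 0 ppm experiments in the reference than in the exposure chamber. Concentration and experiment number cannot be told apart in these values, and the source of the difference was not tested. The reference chamber of the 0.5 ppm experiments held more CCL20 signal than that of the 0 ppm experiments, with no overlap, a difference of 1.20 ± 0.50 (unadjusted p = 0.0525, adjusted 0.924). This difference passed the threshold without the 0 ppm reference array of replicate 1 (1.52, adjusted p = 0.593) and without the 0.5 ppm reference array of replicate 3 (1.46, adjusted p = 0.968), and was 0.88 and not past it without the 0 ppm array of low actin signal. It also passed, at 0.97 to 1.23, with quantile normalization, a pseudocount, the signal filter and an intensity trend (adjusted p = 0.819 to 0.915). In the exposure chamber, by contrast, CCL20 differed by 0.090 ± 0.38 between 0.5 and 0 ppm and by -0.022 ± 0.64 between 0.1 and 0 ppm.

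IL1A, an alarm cytokine stored in epithelial cells, gave the largest fitted difference of the 10 genes, and it lay in the reference chamber. Its brightest probe set, 208200_at, had log2 signals of 3.22, 2.76 and 4.36 in the 0.1 ppm exposure chamber, against -1.44, 4.06 and -1.90 in its reference chamber. On the other 16 arrays it was between 2.76 and 4.52. The low arrays were replicates 1 and 3, of which replicate 1 is the one with low actin signal. The log2 difference at 0.1 ppm was 3.20 ± 1.59 (unadjusted p = 0.0870, adjusted p = 0.998), and 2.36 without replicate 1 of the reference chamber. Without replicate 2 of the reference chamber, which leaves only the low arrays, it was 5.11 and past the threshold (adjusted p = 0.512), and it passed with all 18 arrays in the fit and with an intensity trend. Between the reference chambers of the 0.1 and the 0 ppm experiments the difference was -3.32 ± 1.59 (unadjusted p = 0.0791), and -5.23 and past the threshold (adjusted p = 0.602) without the same array. A log2 signal under 0 is a signal under 1, far below the median of the array, and the second IL1A probe set, 210118_s_at, had 2.62, 2.81 and 2.85 on these 3 reference arrays, with r = 0.041 between the probe sets over 18 arrays.

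At 0.5 ppm, and at 0.1 ppm within the exposure chamber, the brightest IL1A probe set was lower with formaldehyde without passing the threshold. The exposure chamber gave 4.14, 2.99 and 3.15 at 0.5 ppm, against 3.57, 4.39 and 4.29 in its reference chamber, a difference of -0.66 ± 0.42. Against the 0 ppm exposure chamber, at 3.83, 4.52 and 4.07, the difference was -0.71 ± 0.40 for 0.5 ppm (unadjusted p = 0.126) and -0.70 ± 0.48 for 0.1 ppm (unadjusted p = 0.200). Single arrays decided these values. Without the 0.5 ppm exposure array of replicate 1 the differences at 0.5 ppm were -1.02 against the reference chamber and -1.07 against 0 ppm, and without the 0.1 ppm exposure array of replicate 3 that at 0.1 ppm was -1.15, all past the threshold (adjusted p = 1, 0.820 and 0.803). At 0 ppm, where the reference chamber gave 4.38, 2.99 and 3.32, the difference was 0.58 ± 0.45, or 0.99 and past the threshold (adjusted p = 0.538) without the reference array of replicate 1, and 0.45 without the array of low actin signal. The chamber difference at 0.5 against 0 ppm was -1.23 ± 0.63 (unadjusted p = 0.0802), and it passed without the 0 ppm reference array of replicate 1 (-1.65, adjusted p = 0.737) or the 0.5 ppm exposure array of replicate 1 (-1.59, adjusted p = 0.9999). The chamber difference at 0.1 against 0 ppm was 2.63 ± 1.83, and 4.54 and past the threshold (adjusted p = 0.494) without the 0.1 ppm reference array of replicate 2. Without the low actin arrays the chamber differences were 1.91 at 0.1 and -1.11 at 0.5 against 0 ppm. The second probe set ran the other way at 0.5 ppm, higher by 0.68 ± 0.88 than in the reference chamber and by 1.43 ± 0.81 than at 0 ppm in the exposure chamber.

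IL1B, a secreted form of IL-1 that needs cleavage by CASP1, was of middling signal in both of its probe sets. Its brightest, 39402_at, had log2 signals of 4.61, 5.62 and 5.93 in the 0 ppm exposure chamber, against 5.94, 5.61 and 4.63 in its reference chamber. With 0.1 ppm it had 6.25, 5.15 and 5.02, against 6.0, 5.86 and 5.63, and with 0.5 ppm 5.56, 6.45 and 5.20, against 5.48, 6.42 and 4.21 in the reference chamber. The groups overlapped in each pair, with differences of -0.0028 ± 0.52, -0.36 ± 0.45 and 0.36 ± 0.65, and of -0.39 and -0.27 at 0 and 0.1 ppm without the low actin arrays. The probe sets of IL1B agreed only weakly over the arrays (r = 0.20).

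IL6, the acute-phase inducer, was dim in all groups. It had log2 signals of 3.62, 3.20 and 1.84 in the 0 ppm exposure chamber, against 3.99, 4.03 and 2.01 in its reference chamber. With 0.1 ppm it had 2.98, 3.04 and 4.55, against 1.60, 4.31 and 3.67, and with 0.5 ppm 2.86, 3.75 and 1.67, against 3.61, 1.65 and 2.98 in the reference chamber. No pair of groups separated, and the differences of -0.45 ± 0.75, 0.33 ± 0.83 and 0.015 ± 0.73 left changes of more than 2-fold in either direction within their 95% intervals. Without the low actin arrays the differences were -1.12 at 0 ppm and -0.47 at 0.1 ppm, the second with its sign turned.

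Groups that did not overlap were counted for all 17 probe sets. In the exposure against the reference chamber, 0 of 17 member probe sets did not overlap at 0 ppm (10% of all probe sets), 1 of 17 at 0.1 ppm (7.87% of all) and 1 of 17 at 0.5 ppm (6.75% of all). In the exposure chamber the count was 1 for 0.1 against 0 ppm (8.57% of all) and 0 for 0.5 against 0 ppm (8.55% of all). In the reference chamber it was 1 for the 0.1 against the 0 ppm experiments (6.13% of all) and 2 for the 0.5 against the 0 ppm experiments (8.89% of all). Besides the CXCL8, CCL2 and CCL20 probe sets above, CXCL5 (215101_s_at) was among them, lower in the 0.5 ppm exposure chamber with 6.32, 6.32 and 6.39, against 6.58, 6.40 and 6.50 in its reference chamber. The others were the dimmest CXCL2 probe set, 1569203_at, in both comparisons of the reference chambers, lower in the 0.1 ppm and higher in the 0.5 ppm experiments. The brightest CXCL5 probe set differed by 0.28 in the same comparison, the opposite sign.

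**Figure D3:**
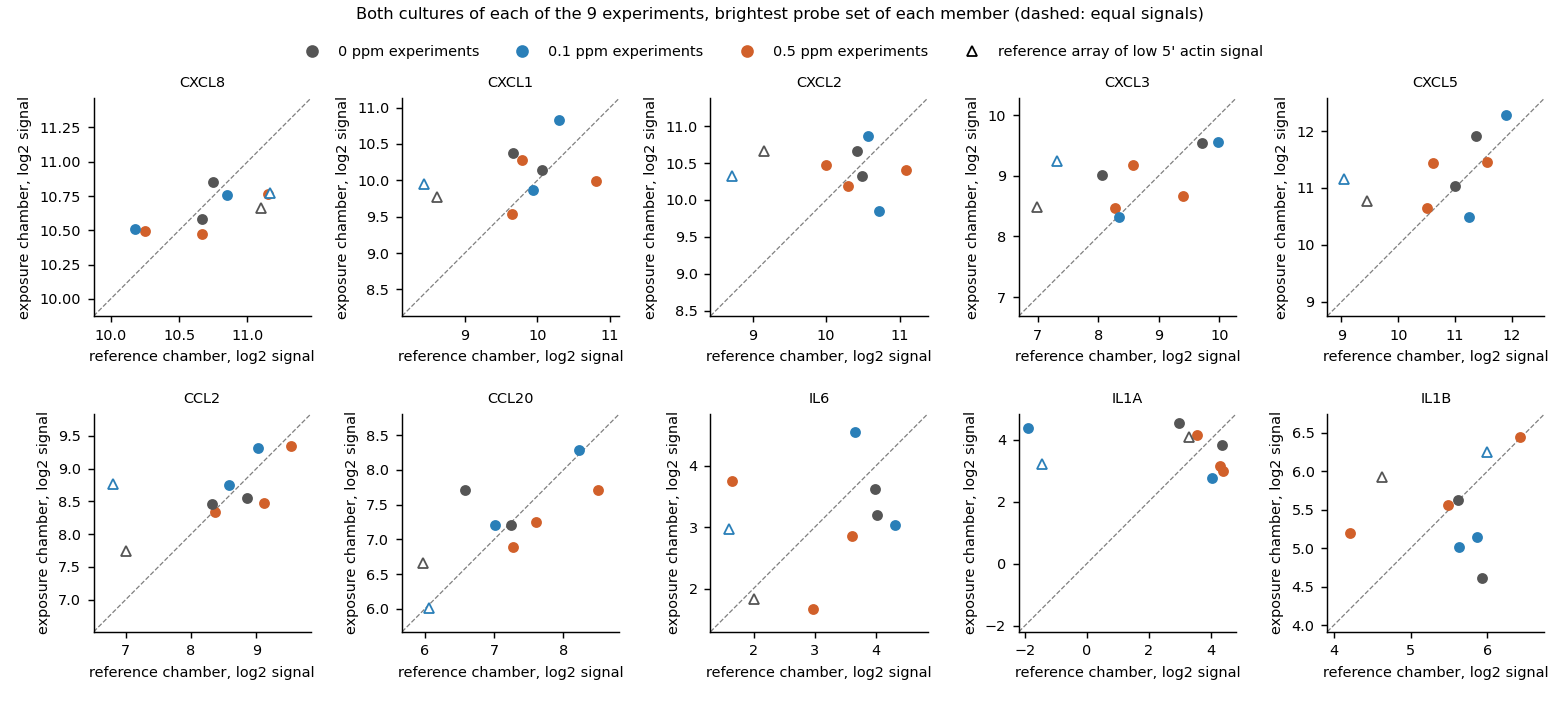
Log2 signal in the exposure chamber (vertical axis) against that in the reference chamber (horizontal axis) of the same experiment, 1 point for each of 9 experiments, coloured by ppm, for the brightest probe set of each gene; open triangles have a reference array of low 5′ actin signal and the dashed line marks equal signals. Pearson's r between the chambers was highest for CCL20 and CXCL8 (0.75 and 0.71) and below 0 for CXCL2 and IL1A (-0.14 and -0.26).

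Since both cultures of an experiment were handled in parallel, the level in the exposure chamber was set against that in the reference chamber over the 9 experiments. Pearson's r was above 0 for 8 of 10 genes. It was 0.75 for CCL20 (exact permutation p = 0.0186) and 0.71 for CXCL8 (exact permutation p = 0.0392), with Spearman's rho of 0.63 (p = 0.0760) and 0.75 (p = 0.0255) in exact permutation tests, all two-sided. After Benjamini-Hochberg adjustment over the 10 genes 0 passed, at 0.186 and 0.196 for these r. Leaving out the 2 experiments farthest from the median reference level gave r = 0.74 for CCL20 and 0.47 for CXCL8. Leaving out the experiments with a reference array of low actin signal gave 0.48 and 0.71 over 7 experiments, so that the CCL20 relation rested in part on those experiments. CCL2 had r = 0.59, and 0.72 without them, with an adjusted permutation p of 0.343 and 0.264. CXCL2 and IL1A had r of -0.14 and -0.26. Within concentrations, from deviations from the 3 means of each chamber, r was 0.89 for CCL20, 0.74 for CCL2 and 0.72 for CXCL8, with an exact permutation p within concentrations of 0.0278, 0.0417 and 0.0880. Of the 10 genes 8 again had r above 0, and 0 passed after adjustment over them (0.208, 0.208 and 0.293 for these genes).

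CXCL1, CXCL2, CXCL3, CXCL5, CCL2 and CCL20 moved together over the 18 arrays, and less so without the 2 arrays of low actin signal. As a description over the 18 arrays, r was 0.92 between CXCL1 and CXCL5, 0.91 between CXCL1 and CXCL2, 0.90 between CXCL2 and CXCL5, 0.89 between CXCL3 and CXCL5, and 0.82 between CXCL1 and CCL2. The arrays share their scaling, and the 2 arrays of low actin signal were low in all of these genes. Without those arrays r was 0.79, 0.70, 0.71, 0.79 and 0.47 for the same pairs. CXCL2 and CCL2 had r = 0.69 over 18 arrays and 0.016 over 16. With the other genes that moved together, CCL20 had r from 0.63 (CXCL2) to 0.76 (CXCL1) over 18 arrays. Over 16 arrays the same pairs had 0.37 and 0.63. The probe sets of CXCL8, a gene of the same cluster on chromosome 4, went apart. The brightest, 202859_x_at, had r of -0.66 with CXCL2 and -0.51 with CXCL1 over 18 arrays, and -0.41 and -0.091 over 16. The dimmer 211506_s_at had 0.53 and 0.72 with the same genes over 18 arrays, and 0.19 and 0.65 over 16. IL1B shared no r above 0.28 with any other member over 18 arrays.

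**Figure D4:**
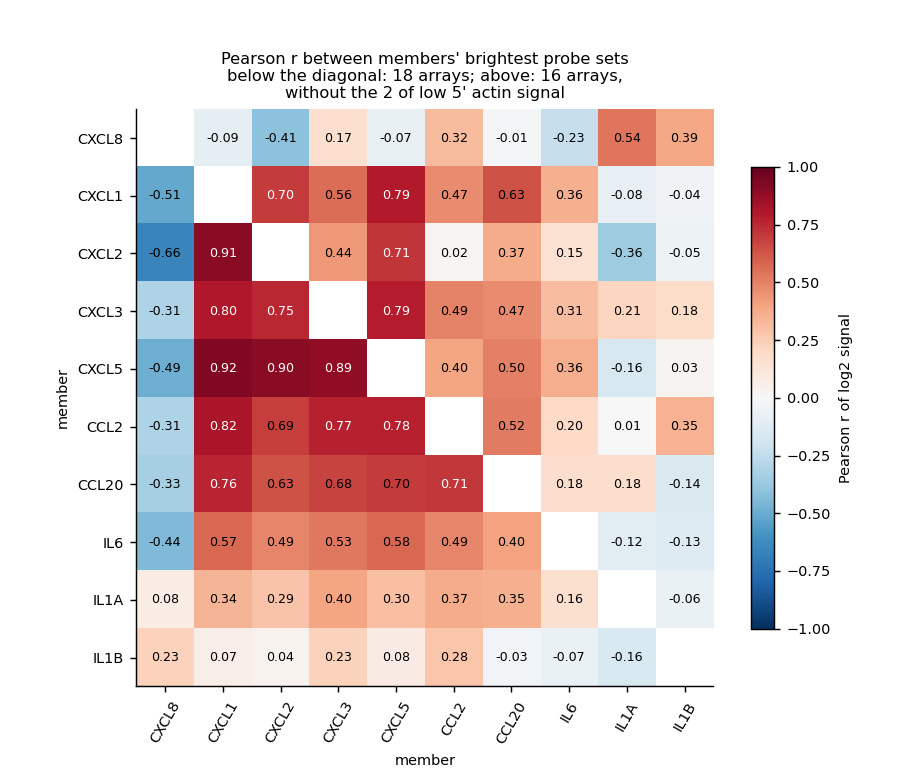
Pearson r of log2 signal between the brightest probe sets of the 10 genes (both axes), below the diagonal over 18 arrays and above it over the 16 arrays without low 5′ actin signal. The block of CXCL1, CXCL2, CXCL3 and CXCL5 has r of 0.75 to 0.92 below the diagonal and 0.44 to 0.79 above it.

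The same genes followed the 5′ actin signal. Over 18 arrays r with the 5′ actin probe set was 0.91 for CXCL3, 0.88 for CXCL5, 0.81 for CCL2, 0.80 for CXCL2, 0.78 for CXCL1 and 0.71 for CCL20, against -0.33 for the brightest CXCL8 probe set and 0.18 for IL1B. Over the 16 other arrays it remained 0.87 for CXCL3 and 0.70 for CXCL5, while it was 0.49 for CCL2, 0.35 for CXCL2, 0.40 for CXCL1 and 0.54 for CCL20. The part of RNA quality in the shared movement of these genes was not tested.

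**Figure D5:**
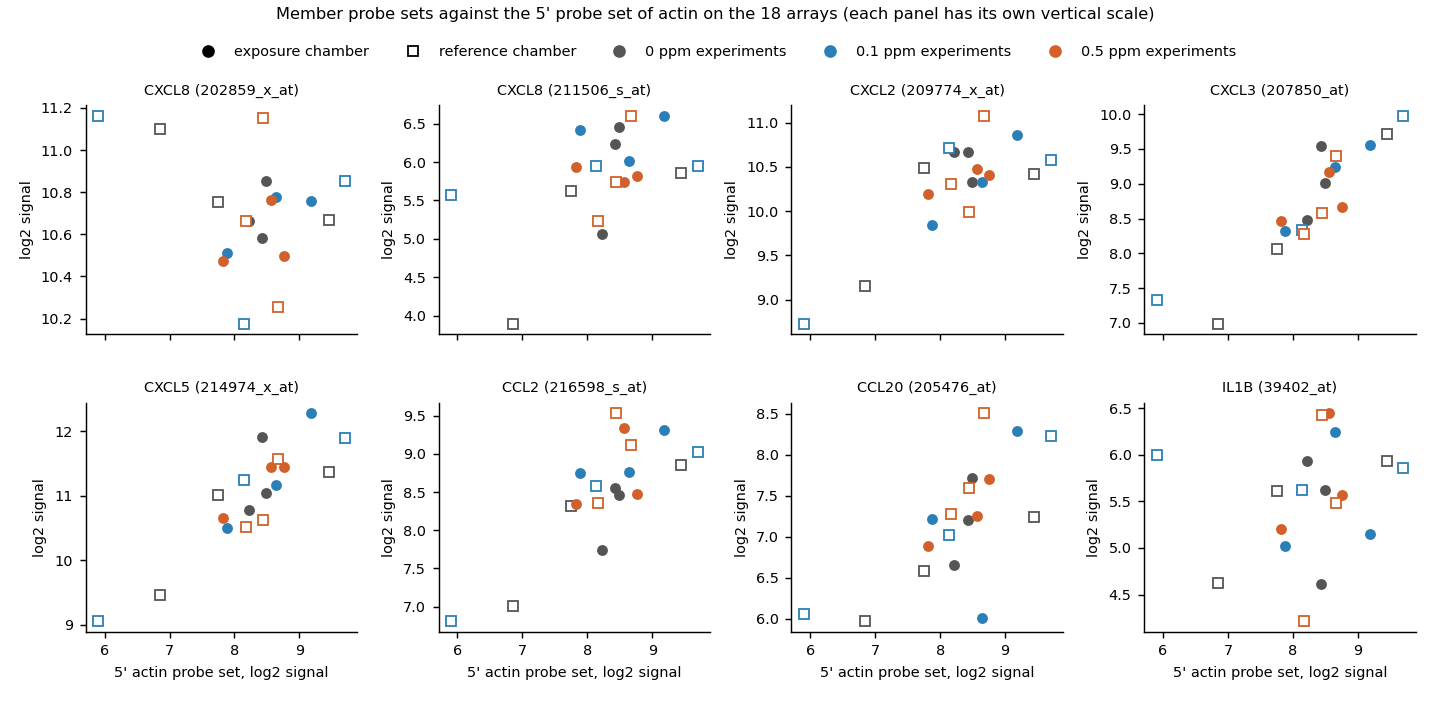
Log2 signal of 8 member probe sets (vertical axis, a scale of its own in each panel) against the log2 signal of the 5′ actin probe set (horizontal axis) on the 18 arrays, filled for the exposure and open for the reference chamber, coloured by ppm. CXCL3 and CXCL5 lie along a line (r = 0.91 and 0.88), and the brightest CXCL8 probe set does not (r = -0.33).

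Outside the 10 genes, the likeness of profile was sought among 22885 probe sets that name 1 gene and reach the median signal, by Pearson r over the 18 arrays. The nearest to CXCL5 were ZBTB10 (r = 0.97), CDK5R1 and RHEB (0.97 each), and CDK5R1 was also among the nearest to CXCL1 (0.94), beside MAPK1IP1L (0.95) and ZNF623 (0.94). For CXCL2 they included PLEKHF2 (0.97) and CASP8 (0.96), for CXCL3 TLNRD1, CHSY1 and TNRC6B (0.94 each) and for CCL2 AMMECR1 (0.96), USP42 (0.96) and BOD1L1 (0.95). CXCL8 was most like H2AX (0.94), NMT1 and ADD2 (0.93 each). CCL20 reached 0.86 with RICTOR, 0.85 with SLC25A16 and 0.84 with MINDY2, IL1A 0.87 with WRNIP1, 0.85 with SENP3 and 0.84 with ZNF227, IL1B 0.84 with TRAFD1, 0.81 with SCAF4 and 0.79 with WDR7, and IL6 0.78 with ORMDL3 and 0.77 with NSUN3 and CNTNAP3. No chemokine or interleukin was among those named. These are the highest r of a search over many probe sets. Without the arrays of low actin signal r was lower for all but SCAF4, which had 0.81 again. It was 0.93 for ZBTB10 with CXCL5, 0.84 for MAPK1IP1L with CXCL1 and 0.84 for CASP8 with CXCL2.

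Genes around the members in the pathway were counted in the same fits by their brightest probe set. Of 57 measured genes in 4 lists (receptors and antagonist, IL-1 and NF-kB signalling, IL-1 maturation, other epithelial cytokines), 11 passed the threshold in at least 1 of 9 comparisons, and 20 of 513 tests (3.9%) passed, a share within the 3.21% to 4.84% of all probe sets. After adjustment 0 passed. Among the 11 receptors and their antagonist, IL6ST, IL1R2 and IL1R1 were bright and did not pass, while CXCR2, a receptor of the neutrophil chemokines, was higher in the 0 ppm exposure than in its reference chamber (1.96 ± 0.51, adjusted p = 0.747) and lower at 0.1 than at 0 ppm in the exposure chamber (-1.69 ± 0.58, adjusted p = 1). CXCR1 was higher in the reference chamber of the 0.5 than of the 0 ppm experiments (0.90 ± 0.31, adjusted p = 0.924) and its chamber difference lower at 0.5 than at 0 ppm (-0.91 ± 0.39). Both were dim, at the 12.8th (CXCR1) and 26.9th (CXCR2) percentile of signal.

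Of 18 genes of IL-1 and NF-kB signalling, 2 passed, both in the chamber difference at 0.5 against 0 ppm: RELB, a subunit of NF-kB (1.03 ± 0.36, adjusted p = 0.9999), and IKBKG, the scaffold of the IKK complex (1.01 ± 0.42, adjusted p = 0.9999). The inhibitor NFKBIA and the feedback regulator TNFAIP3, genes that NF-kB itself turns on, did not pass in any comparison. Of 5 genes of IL-1 maturation, PYCARD, the adaptor of the inflammasome, was higher at 0.5 than at 0 ppm in the exposure chamber (2.58 ± 0.48, adjusted p = 0.527), at the 19.5th percentile of signal.

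Of 23 measured further cytokines, 6 passed in at least 1 comparison, in 13 of 207 tests (6.28%), a share above the 3.21% to 4.84% of all probe sets. The comparisons share arrays, so that these tests are not independent. All 6 were dim: the brightest, CXCL6, stood at the 30.7th percentile of signal. TNF was lower in the 0 ppm exposure than in its reference chamber (-3.29 ± 0.32, adjusted p = 0.280) and higher at 0.5 than at 0 ppm in the exposure chamber (2.53 ± 0.49, adjusted p = 0.557). CXCL10, an interferon-induced chemokine, was higher at 0.1 than at 0 ppm in the exposure chamber (2.41 ± 0.62, adjusted p = 0.884), and CXCL11 lower at 0.5 than at 0 ppm there (-2.03 ± 0.49, adjusted p = 0.816). With 0.5 ppm in the exposure chamber against its reference chamber, CCL5 (1.32 ± 0.43, adjusted p = 1) and CSF3, the neutrophil growth factor (1.46 ± 0.49, adjusted p = 1), were higher and CXCL6, a further ligand of CXCR2, was lower (-2.31 ± 0.78, adjusted p = 1). CSF3 also differed between reference chambers without formaldehyde, by -2.29 ± 0.60 (0.1 against 0 ppm experiments) and -1.74 ± 0.52 (0.5 against 0 ppm experiments). The bright cytokines of the list, MIF and IL18, did not pass.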

How the data were processed

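RNA of 18 A549 cultures was amplified with the NuGEN Applause 3′-Amp system and hybridised to Affymetrix HG-U133 Plus 2.0 arrays. The authors computed MAS 5.0 signals with the affy package, and the deposited values are these intensities on a linear scale, which had the same trimmed mean of 500 on every array (2% trimmed at each end). They were used as log2 signals, without further normalization. The platform annotation names 1 gene for 41097 probe sets, several for 1801 and none for 11777. Groups of 3 arrays were compared as in the study, with limma 3.58.1 in R 4.3.3 (lmFit and eBayes over all 54675 probe sets, only the groups compared in the fit, threshold an unadjusted p under 0.05), and Benjamini-Hochberg adjusted p-values were added. Errors after ± are limma standard errors, and intervals are 95%. The fit was tested on simulated data.

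Replicate numbers pair the chambers of an experiment, as the labelled experiment numbers and the parallel cultures give. Deviations of the paired arrays from their group means correlated at -0.020 to 0.121 over all probe sets and 0.009 to 0.49 over those above the median. Whether replicates of a group were cultures of separate passages is not given in the sources used here. The members and gene lists were chosen with earlier results of these data known. All member probe sets were named, and from each further list the genes past the threshold, at most 4 per comparison by smallest p. Of 81 listed genes besides the members, 3 had no probe set by symbol. Alternatives were all 18 arrays in 1 fit, with the experiment as a random block or without, and the experiment as a fixed block. Further alternatives were quantile normalization, a pseudocount of 32, a signal filter, an intensity trend and each array left out. The relation between chambers within concentrations, and the CCL2 means without 1 experiment, were added after the data were seen.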

Additional observations from a re-analysis of the deposited data

Results flagged for a closer look

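The chamber differences of CCL2 had opposite signs in the 0.1 and the 0.5 ppm experiments. CCL2 was picked out by this pattern, and how many of all probe sets share it was not counted. In the 0.1 ppm experiments the exposure culture exceeded its reference culture in 3 of 3 experiments, by 1.96, 0.28 and 0.18 log2 units, and in the 0.5 ppm experiments it was lower in 3 of 3, with differences of -0.64, -0.19 and -0.018. The mean chamber difference was thus -1.09 at 0.5 against 0.1 ppm, and this difference was not tested. The 1.96 belongs to the experiment whose reference array had a low 5′ actin signal, and without that experiment the means were -0.28 at 0.5 ppm and 0.23 at 0.1 ppm, a difference of -0.51. In the 0 ppm experiments the differences were -0.30, 0.14 and 0.73.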

How the results depend on the processing

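Adjusted p-values of the members stayed above 0.05 in all 131 alternative fits, at 0.494 or more, the smallest for the chamber difference at 0.1 against 0 ppm without the 0.1 ppm reference chamber, replicate 2. At an unadjusted p under 0.05, 52 of 65 counts with all arrays or without the low actin arrays, and 52 of 66 with 1 array left out, remained 0. The count was 1 instead of 0 for 0.1 ppm exposure against reference chamber with all 18 arrays in 1 fit, with the experiment as a random block and with an intensity trend (IL1A). It was 1 for 0.1 against 0 ppm in the exposure chamber with log2(signal + 32), with probe sets at or above the median signal and with the trend (CCL2). It was 1 for 0.1 against 0 ppm experiments in the reference chamber with all 18 arrays and with the random block (IL1A), and 1 for the 0.5 ppm ones with quantile normalization, log2(signal + 32), the signal filter and the trend (CCL20). The experiment as a fixed block gave 1 (CCL20) for the chamber difference at 0.5 against 0 ppm. It changed no other count of member probe sets from 0. The cause was not tested. With 1 array left out the counts ranged from 0 to 2 for 0 ppm exposure against reference chamber and the chamber difference at 0.5 against 0 ppm, and from 0 to 1 for the other 7 comparisons. Counts above 0 arose without exposure-chamber arrays of 0 ppm (replicates 1 and 2), 0.1 ppm (replicate 3) and 0.5 ppm (replicates 1 and 2) or reference-chamber arrays of 0 ppm (replicate 1), 0.1 ppm (replicate 2) and 0.5 ppm (replicate 3), and in 3 of these fits only a probe set other than the brightest of its gene passed. With 3 arrays per group, the median standard error of the members was 0.38 to 0.92 log2 units over the 9 comparisons, which limits the differences that could be detected, and the dim IL6 and IL1A lie where signals approach background.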
